A study of Arabidopsis thaliana with 30 samples.

Results

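The flavonoid and anthocyanin pathway was followed through 43 genes of Arabidopsis thaliana out of the 27417 genes counted in the experiment. Members were chosen by gene identifier: the general phenylpropanoid enzymes, the structural genes of flavonoid, flavonol and anthocyanin synthesis, and the regulators known to switch them on or off. They fell into 8 general phenylpropanoid genes, 5 early flavonoid genes, 4 flavonol genes, 1 glucosyltransferase shared by both branches, 10 late anthocyanin genes, 7 anthocyanin activators, 3 flavonol MYB genes and 5 repressors. Of these, 39 passed the filter on low counts. The other 4 were UGT78D3 (flavonol arabinosyltransferase) with 114 counts in all 30 libraries, MYB11 (a flavonol MYB) with 51, MYB113 (an anthocyanin MYB) with 38 and GL3 (a bHLH partner) with 25, and they were not tested.

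Shoots of wild-type Col-0 plants, raised on MS medium and then moved to ceramic granular soil, were profiled by RNA-seq in 30 libraries. Ethanol-treated plants stood for 3 days in 10 mM ethanol and water-treated plants stood in water before water was withheld. Harvest days, counted as days after drought onset (DAD), were 0, 1, 3, 5 and 7 in both arms, with 3 libraries in each of the 10 groups. There was no group kept watered through these days, so drought cannot be told apart from plant age and time in the soil. All plants carried the same genotype, and a library represents the whole shoot.

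Flavonoids are made from phenylalanine. PAL, C4H and 4CL turn it into the activated coumaroyl unit, which also feeds lignin and sinapate esters, and CHS, CHI and F3H build the flavonoid skeleton from it. At that point the path forks: FLS1 leads to flavonols, which are stored as glycosides, whereas DFR and LDOX lead to the red anthocyanins. In Arabidopsis the flavonol genes are controlled by MYB11, MYB12 and MYB111, and the late anthocyanin genes by a complex of a MYB (PAP1, PAP2, MYB113), a bHLH protein (TT8, GL3, EGL3) and the WD40 protein TTG1. MYBL2, CPC, SPL9, LBD37 and LBD38 hold that complex or its targets back. Both end products are known to accumulate in leaves under light, cold, nutrient and drought stress.

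Library totals ran between 3625884 and 14735127 counts, the lowest being ethanol 0 DAD replicate 1. Values are given as CPM, the count scaled to a common library size, and the 3 libraries of a group are listed in the order of their replicate numbers. At a floor of 3 counts the libraries resolved levels down to between 0.204 and 0.820 CPM. The leaf markers RBCS1A, RBCS3B, RCA, LHCB1.3 and LHCB2.1 were abundant, with a summed level of 33419 to 37608 CPM in ethanol-treated and 4660 to 8090 CPM in water-treated shoots at 7 DAD. The 5 root markers summed to 25.7 to 45.8 CPM in ethanol and 3.99 to 14.6 CPM in water at that day, nearly all of it from PYK10, and 3 of the 5 had no count in water. Flower markers (AG, AP3, AMS, MS1) summed to 42.5 to 57.7 CPM in ethanol and 18.2 to 29.2 CPM in water at 7 DAD, against 3.43 to 6.21 CPM in ethanol and 2.57 to 7.02 CPM in water at 0 DAD, and the seed storage markers stayed at or below 0.570 CPM at 7 DAD. Leaf and flower markers thus moved with arm and day, and their part in the results was not tested.

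Libraries of a group also differed from each other. Ethanol 7 DAD replicate 2 had 335 CPM of the drought marker RD29B, against 15.3 and 14.9 CPM in the other ethanol libraries and 2288, 2598 and 2231 CPM in water. In that library 5 of the 10 late anthocyanin genes were at their highest of the ethanol group, and none at their lowest. Water 7 DAD replicate 3 was the lowest of its group in 9 of the 10 late anthocyanin genes. So was water 5 DAD replicate 2 in 10 of 10, and ethanol 7 DAD replicate 1 and water 0 DAD replicate 3 in 8 of 10 each. Results that turn on a library are given with and without it.

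Ethanol against water at 7 DAD gave the widest separation of the pathway, and it divided the branches. With edgeR's quasi-likelihood test at an adjusted p under 0.1, 21 members were higher and 6 lower in ethanol, out of 39 tested. Most genes differed between the arms by then: 60.5% of all genes tested passed the same test, 32.0% higher and 28.6% lower. Arms without overlap were common too. In 30.5% of all genes tested every ethanol library was above every water library, and in 29.1% every one was below. Among the members these were 20 above and 5 below. The median log2 fold change was 0.62 over the members and 0.05 over all genes. All 3 tested flavonol genes were higher in ethanol than in water, with a median log2 fold change of 2.74, whereas none of the 10 late anthocyanin genes was higher, 2 were lower, and the median was -0.07. The early flavonoid genes lay between, with 4 of 5 higher and a median of 0.65. In these bulk shoots fewer cells of a type and less RNA per cell cannot be told apart.

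**Figure D1:**
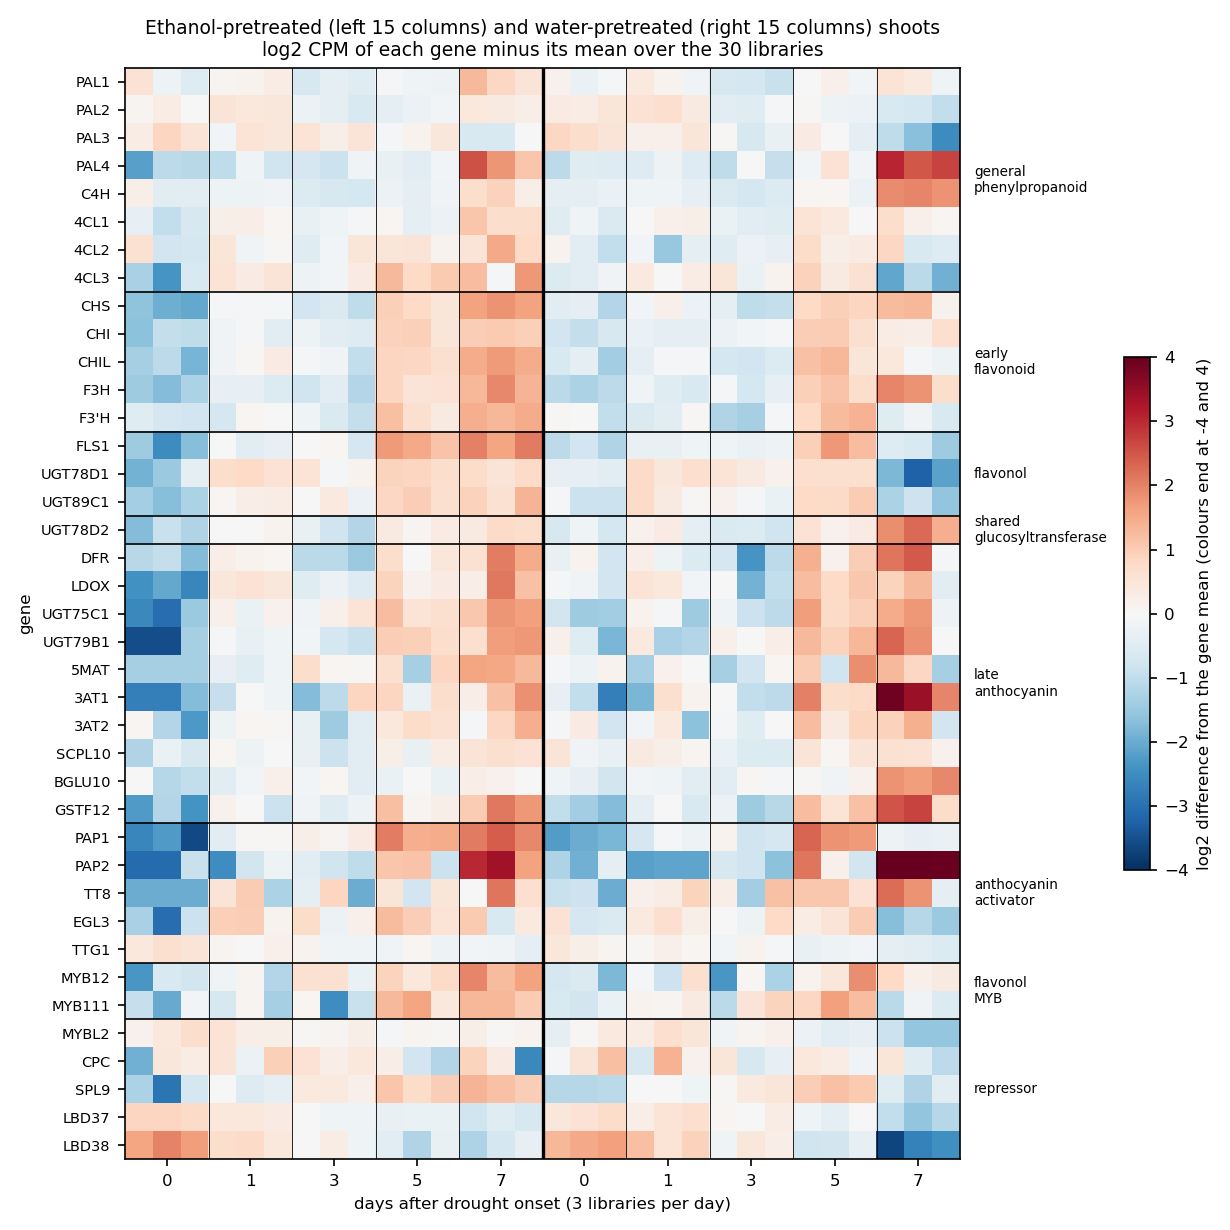
Each row is a pathway gene, ordered by step, and each column a library, 15 of ethanol on the left and 15 of water on the right, by day from 0 to 7 DAD. Colour gives log2 CPM relative to the gene's mean over the 30 libraries, with colours ending at -4 and 4. The 3 flavonol genes are high in both arms at 5 DAD but high at 7 DAD in the ethanol columns alone, while most late anthocyanin genes are above their mean at 7 DAD in ethanol and in water replicates 1 and 2.

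The 250 bases before the annotated gene start are shown for the 3 flavonol genes, for 4CL3 and for the MYB genes PAP1 and PAP2, chosen after their values were seen because the account of 7 DAD turns on them. They are read 5′ to 3′ on the gene's strand from the RefSeq annotation of assembly TAIR10.1. Capitals mark the letters CACGTG (the G-box, which bHLH and bZIP factors bind) or ACCTACC (an AC element, the kind of site that R2R3 MYB factors bind). Both strands were searched.
FLS1, chr5:2803583-2803832, plus strand: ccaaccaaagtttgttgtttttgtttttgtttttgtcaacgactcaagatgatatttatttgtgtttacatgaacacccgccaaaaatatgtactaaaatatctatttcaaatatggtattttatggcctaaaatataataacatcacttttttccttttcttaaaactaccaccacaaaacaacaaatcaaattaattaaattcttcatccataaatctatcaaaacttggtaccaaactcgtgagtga
UGT78D1, chr1:10814362-10814611, plus strand: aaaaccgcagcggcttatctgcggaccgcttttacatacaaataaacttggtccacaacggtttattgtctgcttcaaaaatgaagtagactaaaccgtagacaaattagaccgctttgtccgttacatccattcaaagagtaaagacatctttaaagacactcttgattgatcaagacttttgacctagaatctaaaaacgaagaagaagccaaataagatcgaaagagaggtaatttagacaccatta
UGT89C1, chr1:1821895-1822144, minus strand: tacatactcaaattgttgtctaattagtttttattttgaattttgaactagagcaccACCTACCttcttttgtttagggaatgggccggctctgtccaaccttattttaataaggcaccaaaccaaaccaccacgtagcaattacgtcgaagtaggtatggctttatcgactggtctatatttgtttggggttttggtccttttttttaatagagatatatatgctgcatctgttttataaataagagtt
4CL3, chr1:24171636-24171885, minus strand: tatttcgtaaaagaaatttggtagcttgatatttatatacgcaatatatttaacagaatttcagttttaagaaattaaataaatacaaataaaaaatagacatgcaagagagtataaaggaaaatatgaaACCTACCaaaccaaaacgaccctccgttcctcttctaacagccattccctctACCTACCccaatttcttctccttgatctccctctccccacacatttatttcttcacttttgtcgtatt
PAP1, chr1:21235293-21235542, minus strand: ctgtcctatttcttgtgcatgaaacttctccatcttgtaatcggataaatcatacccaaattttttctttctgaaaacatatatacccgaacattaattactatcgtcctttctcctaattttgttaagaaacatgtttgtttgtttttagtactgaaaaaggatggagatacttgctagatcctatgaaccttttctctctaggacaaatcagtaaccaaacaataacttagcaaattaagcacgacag
PAP2, chr1:24763691-24763940, plus strand: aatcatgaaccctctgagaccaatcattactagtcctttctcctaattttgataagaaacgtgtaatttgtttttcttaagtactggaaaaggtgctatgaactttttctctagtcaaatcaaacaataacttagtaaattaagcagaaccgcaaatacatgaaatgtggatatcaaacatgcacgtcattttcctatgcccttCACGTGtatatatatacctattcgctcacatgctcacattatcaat

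ACCTACC was found in the windows of 3 of the 43 members, against 1.16% of the 27443 windows of the same length before protein-coding genes. Those 3 were 4CL3, with 2 matches, UGT89C1 and UGT78D3. The G-box was found before 9 of the 43 members, against 6.49% of all windows, with 3 of 10 late anthocyanin genes, 3 of 5 early flavonoid genes and none of the 4 flavonol genes among them. ACGTGGC, the ABRE core that abscisic acid responsive bZIP factors bind and that can overlap a G-box, was in 4 member windows and 3.37% of all. ACCAACC, another AC element, was in 4 member windows and 2.69% of all. A match is only a run of letters, and a window without a match says nothing of the factor. The window before UGT78D1 overlaps another annotated gene, AT1G06347.

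Flavonol genes were high in ethanol and low in water. FLS1 (AT5G08640), flavonol synthase, the enzyme that commits the pathway to flavonols, stood at 85.3, 63.0 and 88.9 CPM in ethanol against 14.4, 13.6 and 7.64 CPM in water at 7 DAD. Every ethanol library was above every water library. The log2 fold change was 2.74 ± 0.245 (SE), a 6.70-fold difference, with an adjusted p of 1.59e-10.

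UGT78D1 (AT1G30530), which adds rhamnose to position 3 of flavonols, stood at 63.1, 54.1 and 65.3 CPM in ethanol against 10.8, 3.83 and 8.55 CPM in water. Again no library of one arm reached the other, and the difference was 7.71-fold (log2 fold change 2.95 ± 0.266, adjusted p = 1.82e-10). UGT89C1 (AT1G06000), which adds rhamnose at position 7 of the same molecules, stood at 37.3, 29.6 and 50.1 CPM in ethanol against 7.92, 10.8 and 6.27 CPM in water. Its arms did not overlap either (log2 fold change 2.24 ± 0.242, adjusted p = 5.91e-09). Of the flavonol regulators, MYB111 was higher in ethanol at 4.77, 4.83 and 3.79 CPM, against 0.720, 1.6 and 1.14 CPM in water (log2 fold change 1.96 ± 0.602, adjusted p = 0.00685). MYB12 stood at 4.23, 2.58 and 3.28 CPM in ethanol and 1.80, 1.12 and 1.25 CPM in water. Its arms did not overlap, but the log2 fold change of 1.26 ± 0.71 did not pass the test (adjusted p = 0.137), and it did pass with the 2 groups fitted alone (adjusted p = 0.0443).

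UGT78D2, the glucosyltransferase that serves flavonols and anthocyanins alike, went the other way. It stood at 22.6, 30.3 and 28.6 CPM in ethanol against 64.1, 85.7 and 48.2 CPM in water, and every ethanol library was below every water library. Its log2 fold change was -1.28 ± 0.215 (adjusted p = 1.02e-05).

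Late anthocyanin genes overlapped between the arms for the most part. DFR (AT5G42800), dihydroflavonol reductase, the first enzyme of the anthocyanin side, stood at 29.5, 80.8 and 54.7 CPM in ethanol against 85.2, 107 and 18.4 CPM in water. The lowest and the highest of the 6 values were both in water, and the log2 fold change was -0.35 ± 0.411 (adjusted p = 0.496). Without water 7 DAD replicate 3 it was -0.80 (adjusted p = 0.0614), and without that library and ethanol 7 DAD replicate 2 it was -1.16 (adjusted p = 0.0109). That pair was chosen after the late gene levels were seen, so the last value is not independent of the choice. Ethanol 7 DAD replicate 1, the lowest of its group in 8 of 10 late genes, was kept in that fit.

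LDOX (AT4G22880), the next enzyme, stood at 15.3, 55.5 and 28.5 CPM in ethanol against 23.6, 31.7 and 9.46 CPM in water, with overlapping arms and a log2 fold change of 0.62 ± 0.375 (adjusted p = 0.163). Its call depended on single libraries: it was 1.02 (adjusted p = 0.0436) without water 7 DAD replicate 2 and 0.99 (adjusted p = 0.0274) without ethanol 7 DAD replicate 1. UGT75C1, which glucosylates anthocyanins at position 5, stood at 12.9, 21.0 and 19.1 CPM in ethanol and 17.3, 20.3 and 5.13 CPM in water (log2 fold change 0.32 ± 0.393, adjusted p = 0.511). GSTF12, the glutathione transferase that carries anthocyanins to the vacuole, stood at 25.8, 55.7 and 43 CPM in ethanol and 73.5, 84.1 and 21.2 CPM in water. The arms overlapped and the log2 fold change of -0.52 did not pass (adjusted p = 0.244), but it was -0.92 (adjusted p = 0.0238) without water 7 DAD replicate 3. SCPL10, UGT79B1, 5MAT and 3AT2, which decorate the anthocyanin core with sinapate, xylose, malonate and coumarate, did not pass the test.

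Of the 10 late genes, BGLU10 and 3AT1 were lower in ethanol than in water. BGLU10, a glucosidase-like enzyme that adds glucose to anthocyanins, stood at 44.3, 42.1 and 36.9 CPM in ethanol against 129, 119 and 140 CPM in water. No library of one arm reached the other, and the log2 fold change was -1.66 ± 0.204 (adjusted p = 6.39e-08). 3AT1, a coumaroyltransferase, stood at 1.63, 3.25 and 5.17 CPM in ethanol against 22.6, 16.6 and 5.70 CPM in water (log2 fold change -2.14 ± 0.695, adjusted p = 0.0101). 3AT1 and 3AT2 hold near-identical stretches (95% or more over 100 bases or more), so their counts are less certain. LDOX shares such a stretch with AT4G22870, which had 11 counts in all 30 libraries, and PAL4 with AT2G18660, which had 3072.

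The anthocyanin MYB genes moved in opposite directions. PAP1 (AT1G56650, also MYB75), an activator of the late genes, stood at 47.8, 60.5 and 42.7 CPM in ethanol against 9.60, 8.77 and 9.23 CPM in water. The ethanol values were all above the water values, which lay close together, and PAP1 was 5.45-fold higher (log2 fold change 2.45 ± 0.247, adjusted p = 1.57e-09). PAP2 (AT1G66390, also MYB90), its close relative, stood at 15.5, 19.4 and 5.6 CPM in ethanol against 81.2, 88.5 and 29.3 CPM in water. Here every ethanol library was below every water library, and PAP2 was 4.93-fold lower (log2 fold change -2.30 ± 0.546, adjusted p = 0.000698). PAP2 shares a near-identical stretch with MYB114 (AT1G66380), which had 7 counts in all 30 libraries.

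Among their partners, EGL3 was higher in ethanol at 3.68, 1.01 and 2.24 CPM, against 0.360, 0.638 and 0.456 CPM in water (log2 fold change 2.25 ± 0.623, adjusted p = 0.003). TT8, the bHLH protein that drives DFR, stood at 0.650, 3.70 and 1.21 CPM in ethanol and 3.96, 2.87 and 0.456 CPM in water, overlapping, with a log2 fold change of -0.39 ± 0.909 (adjusted p = 0.743). TTG1 was 45.7, 44.2 and 38.7 CPM in ethanol and 38.5, 35.7 and 33.9 CPM in water. Its log2 fold change of 0.25 passed narrowly (adjusted p = 0.0916) and did not pass in DESeq2.

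Repressors were higher in ethanol too, 4 of 5. LBD38, a repressor that responds to nitrate, stood at 6.18, 8.98 and 11.9 CPM in ethanol against 0.960, 2.07 and 2.51 CPM in water, without overlap (log2 fold change 2.29 ± 0.315, adjusted p = 4.3e-07). MYBL2, a small MYB that displaces the activators from the complex, stood at 243, 215 and 228 CPM in ethanol against 114, 71.3 and 70.7 CPM in water. The 2 arms were far apart (log2 fold change 1.42 ± 0.175, adjusted p = 6.54e-08). SPL9, which interferes with the complex, was also higher than in water (log2 fold change 1.86 ± 0.253, adjusted p = 3.42e-07), as was LBD37 (0.57, adjusted p = 0.00119), and CPC did not pass the test.

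Upstream, the PAL genes split and the 4CL genes did not. 4CL3 (AT1G65060), the coumarate ligase isoform tied to flavonoids, stood at 15.2, 5.95 and 21.6 CPM in ethanol against 1.32, 2.87 and 1.48 CPM in water. All ethanol libraries were higher, although they spread widely, and the difference was 7.72-fold (log2 fold change 2.95 ± 0.396, adjusted p = 2.9e-07). C4H, cinnamate hydroxylase, was 193, 225 and 142 CPM in ethanol against 441, 457 and 410 CPM in water, every ethanol value below every water value (log2 fold change -1.22 ± 0.15, adjusted p = 6.16e-08). Of the PAL genes, PAL3 (log2 fold change 1.29), PAL2 (1.11) and PAL1 (0.64) were higher in ethanol than in water and PAL4 was lower (-0.84, adjusted p = 0.0151). 4CL2 (0.95) and 4CL1 (0.49) were higher as well. Leaving out single libraries took the calls of PAL1, PAL4, 4CL1 and 4CL2 away: PAL1 and 4CL1 without ethanol replicate 1, 4CL1 and 4CL2 without water replicate 3, 4CL2 also without water replicate 2 or ethanol replicate 2, and PAL4 without ethanol replicate 3.

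CHS (AT5G13930), chalcone synthase, the entry enzyme of the flavonoid path, stood at 290, 334 and 291 CPM in ethanol against 232, 242 and 108 CPM in water. Every ethanol library was higher, and the log2 fold change was 0.65 ± 0.217 (adjusted p = 0.0116). Without water 7 DAD replicate 3, the lowest of them, it was 0.37 and did not pass (adjusted p = 0.121). F3'H, the hydroxylase that sets the ring pattern of quercetin and cyanidin, was higher with 11.2, 10.2 and 11.5 CPM in ethanol against 2.76, 3.51 and 2.51 CPM in water (log2 fold change 1.91 ± 0.364, adjusted p = 5.48e-05). CHIL, a chalcone isomerase-like helper of CHS, was higher by a log2 fold change of 1.49 ± 0.241 (adjusted p = 5.37e-06), and CHI, chalcone isomerase, by 0.58 (adjusted p = 0.00356). F3H, flavanone hydroxylase, stood at 65.8, 99.3 and 68.0 CPM in ethanol and 102, 92.0 and 42.6 CPM in water, overlapping (log2 fold change -0.02 ± 0.227, adjusted p = 0.951). It was -0.51 (adjusted p = 0.0441) without ethanol replicate 2 and water replicate 3. Those libraries were picked for their late gene levels, so the calls of DFR, GSTF12 and F3H in that fit are not independent of the choice.

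**Figure D2:**
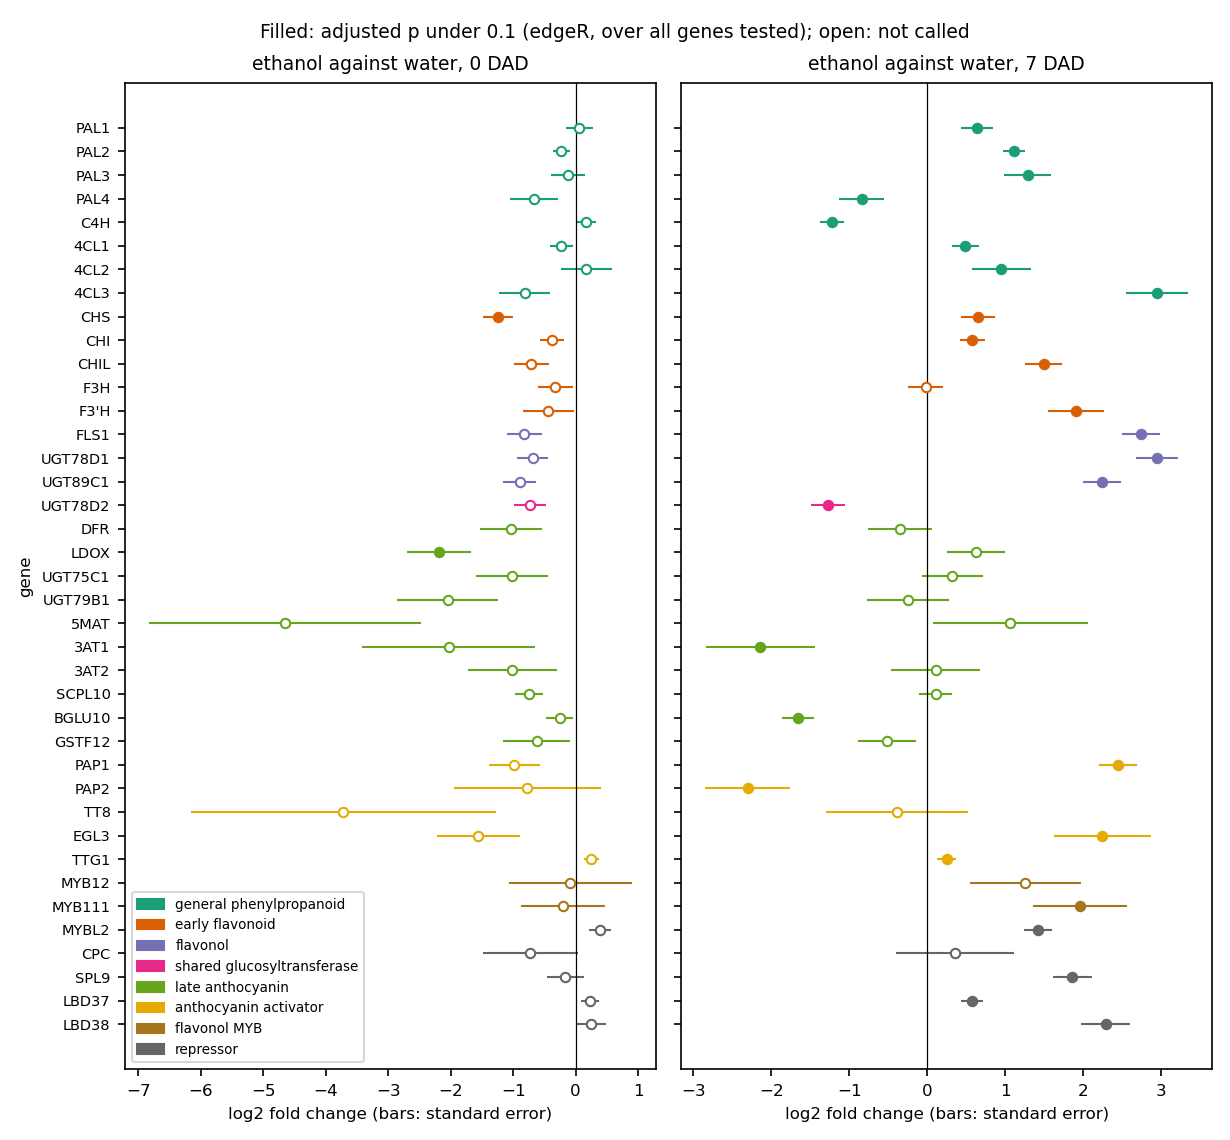
Log2 fold change of ethanol against water with its standard error (horizontal axis) for the 39 tested members, grouped by step, at 0 DAD and at 7 DAD, with filled points for genes past the adjusted p threshold. At 7 DAD the 3 flavonol genes sit between 2.24 and 2.95 and the late anthocyanin genes spread around 0, while at 0 DAD most members sit below 0, the points of 5MAT and TT8 there resting on an ethanol group at 0 counts.

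The balance of the branches was read as the log2 ratio of DFR to FLS1 within each library, which compares groups and not the 2 genes' levels. At 7 DAD it was -1.53, 0.36 and -0.70 in ethanol against 2.55, 2.96 and 1.24 in water. All ethanol libraries were below all water libraries, and the means were -0.62 ± 0.944 in ethanol and 2.25 ± 0.898 in water (SD, n = 3 each), a difference of -2.87. An exact two-sided permutation test gave p = 0.1, the smallest that 3 against 3 allow, and 0.5 after adjustment over the 5 days. On the other days the arms overlapped, and the differences were -0.08, 0.34, 0.14 and -0.62 at 0, 1, 3 and 5 DAD, with exact permutation p of 0.3 or more.

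**Figure D3:**
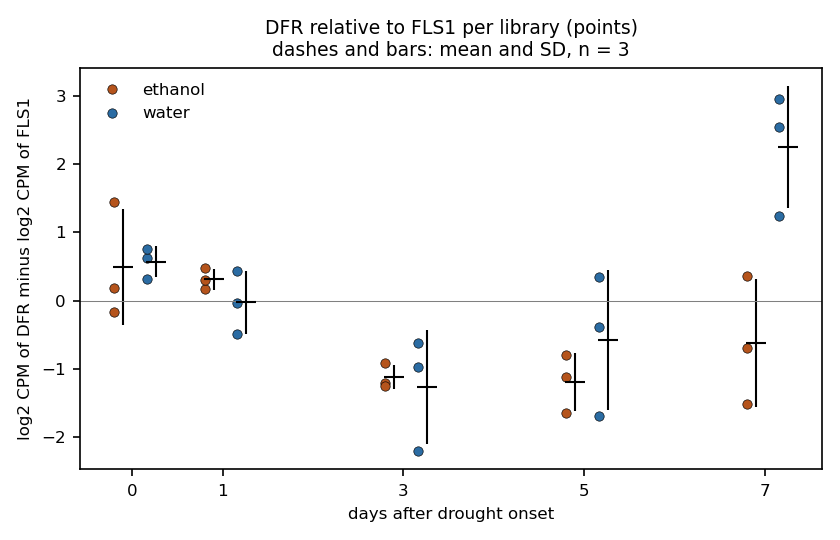
Log2 ratio of DFR to FLS1 (vertical axis) against day of drought, 1 point per library, with a dash and bar for the mean and SD of each group of 3, in ethanol and in water. The arms overlap through 5 DAD and lie apart at 7 DAD, where the ethanol mean is -0.62 and the water mean 2.25.

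At 0 DAD, directly after the pretreatment, CHS and LDOX were lower in ethanol, 2 of 39 members, where 1.71% of all genes passed. CHS stood at 31.2, 24.5 and 23.1 CPM in ethanol against 70.0, 72.6 and 42.6 CPM in water. No ethanol library reached the lowest water library (log2 fold change -1.24 ± 0.237, adjusted p = 0.0108). LDOX stood at 2.19, 2.90 and 1.87 CPM in ethanol against 11.9, 11.3 and 7.40 CPM in water, also without overlap (log2 fold change -2.19 ± 0.515, adjusted p = 0.037). Its call was lost without water replicate 2, ethanol replicate 1 or ethanol replicate 3 of that day, with log2 fold changes between -2.00 and -2.38 over the 6 libraries left out in turn, while CHS passed each time.

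In 10 further members, none of them called, every ethanol library of 0 DAD was below every water library, and in LBD37 every one was above. With CHS and LDOX that makes 12 of 39 members below and 1 above, where 8.56% of all tested genes lay wholly below and 7.29% wholly above. The 12 include 5MAT, whose levels were too near the floor of 3 counts to resolve a difference. FLS1 was 7.65, 3.43 and 6.33 CPM in ethanol and 10.0, 12.3 and 8.94 CPM in water (log2 fold change -0.82 ± 0.285, adjusted p = 0.196). DFR (-1.03 ± 0.5, adjusted p = 0.394), UGT75C1 (-1.02 ± 0.57, adjusted p = 0.48) and PAP1 (-0.98 ± 0.409, adjusted p = 0.31) were likewise all lower and not called. F3H (-0.32), MYB12 (-0.08) and MYBL2 (0.39) overlapped between the arms. TT8 and 5MAT had no count in any ethanol library of this day and at most 4 counts in any water library, where their mean CPM was below the floor of 3 counts in the ethanol libraries, so no fold is given. The median over the members was -0.69, or -0.62 with those genes set to no difference, against -0.02 over all genes. The ethanol libraries of 0 DAD include the 2 smallest totals, 3625884 counts in replicate 1 and 4037295 in replicate 2. The members' median was -0.51 without the first and -0.56 without the second.

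From 1 to 5 DAD no member passed between the arms, where 0%, 0.992% (0.888% higher, 0.104% lower) and 0% of all genes passed at 1, 3 and 5 DAD. At an unadjusted p under 0.05, edgeR gave 0 members at 1 DAD, 3 at 3 DAD and 1 at 5 DAD, and DESeq2, which also called 0 members on each day, gave 0, 4 and 1. Member medians were 0.01, 0.03 and -0.24 on these days. FLS1 at 5 DAD was 68.8, 60.0 and 46.3 CPM in ethanol and 40.6, 70.8 and 49.6 CPM in water. PAP1 was 46.3, 30.8 and 31.6 CPM in ethanol and 56.0, 39.1 and 36.4 CPM in water. Both genes thus stood at overlapping levels 2 days before the arms parted.

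**Figure D4:**
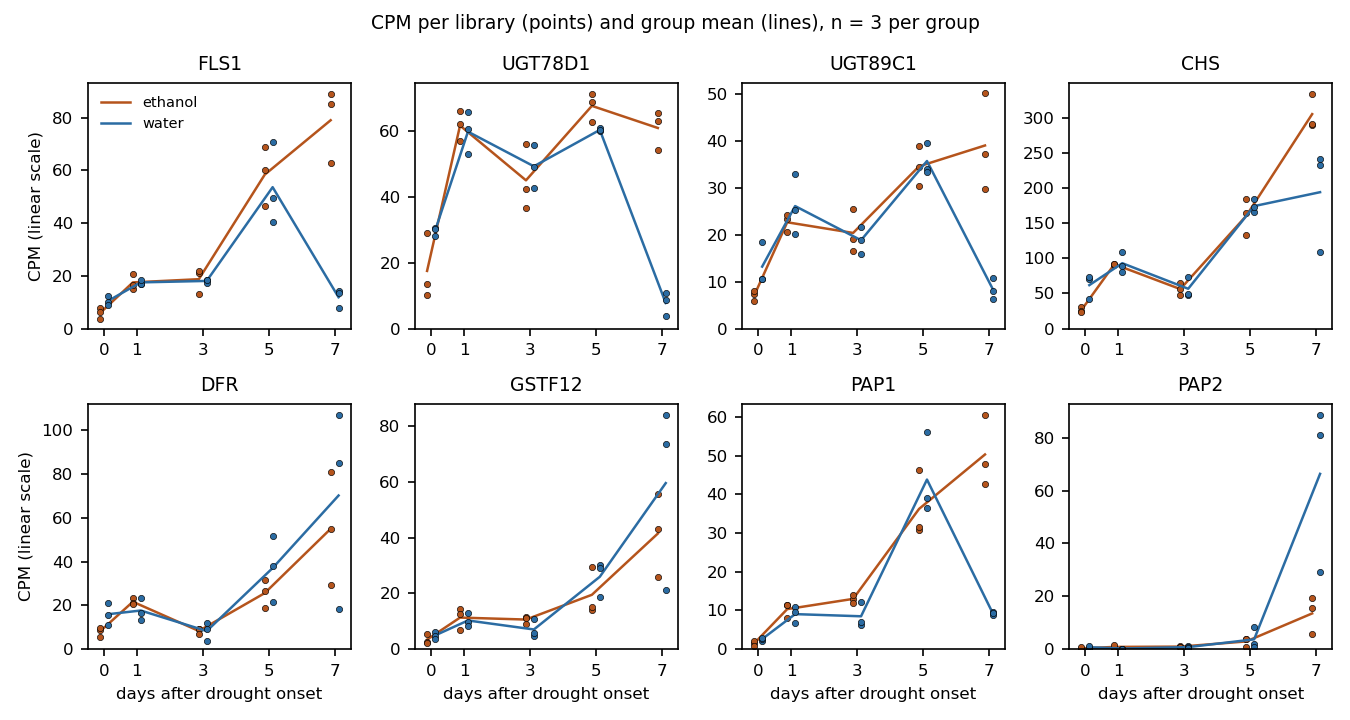
CPM on a linear axis (vertical) against day of drought for FLS1, UGT78D1, UGT89C1, CHS, DFR, GSTF12, PAP1 and PAP2, with a point for each library and lines through the group means of ethanol and water. FLS1, UGT78D1, UGT89C1 and PAP1 are higher at 5 than at 0 DAD in both arms and lower at 7 than at 5 DAD in water, whereas PAP2 is highest at 7 DAD in water.

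By 5 DAD most members were called higher than at 0 DAD in both arms. In water as many were lower as higher at 3 DAD, and 10 were lower at 7 DAD. Called members are set beside the share of all genes called in the same direction. In ethanol, 24 members were called at 1 against 0 DAD, where 18.3% of all genes passed: 21 higher (9.35%) and 3 lower (8.90%). At 3 DAD it was 23 (24.6%), with 18 higher (13.0%) and 5 lower (11.6%). At 5 DAD it was 33 (33.3%), with 28 higher (16.8%) and 5 lower (16.4%). Ethanol ended with 36 (41.5%), 32 of them higher (22.0%) and 4 lower (19.5%). In water, 7 were called at 1 DAD (12.9%), all of them higher (5.81%; 7.07% of all genes were lower). On day 3 there were 12 (19.6%), 6 higher (9.25%) and 6 lower (10.4%). Day 5 gave 29 (33.0%), 24 higher (16.2%) and 5 lower (16.8%). Water ended with 30 (70.0%), 20 higher (34.5%) and 10 lower (35.5%). Within an arm these share the 0 DAD libraries, which in ethanol were low in CHS and LDOX and, without a call, in further members. At 0 DAD 12 members, among them 5MAT near the floor, had every ethanol library below every water library (8.56% of all genes did). The member median between the arms was -0.69. At 1 DAD that median was 0.01, with 0 members called. Whether this lower start added to the calls in ethanol was not tested.

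By 1 DAD in ethanol the branches had risen together: 7 of 10 late anthocyanin genes, all 3 flavonol genes and 4 of 5 early genes. LDOX rose by a log2 fold change of 2.99 ± 0.504 (adjusted p = 0.00011), PAP1 by 2.98 ± 0.357 (adjusted p = 9.99e-07) and EGL3 by 2.46 ± 0.65 (adjusted p = 0.01), and TT8, at 0 counts on day 0, was at least 1.41-fold higher (3-count floor per library). EGL3 stood at 0.547, 0 and 0.820 CPM in ethanol at 0 DAD, near the floor of 3 counts. LBD38 (-1.12), LBD37 (-0.44) and TTG1 (-0.42) fell. Single libraries decided some of these calls: TT8 was lost without ethanol 0 DAD replicate 1 or 3 or ethanol 1 DAD replicate 2, TTG1 (-0.36) without that last library, and LBD37 (-0.40) without ethanol 1 DAD replicate 3. In water at 1 DAD the 3 flavonol genes rose, UGT78D1 by 1.02 ± 0.238, UGT89C1 by 0.97 ± 0.231 and FLS1 by 0.76 ± 0.246, along with PAP1 (1.79 ± 0.287) and SPL9 (1.07), and no late anthocyanin gene was called. FLS1 was lost without water 0 DAD replicate 1 or 3 or water 1 DAD replicate 3, its log2 fold change then staying between 0.66 and 0.88.

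At 3 DAD in ethanol PAP1 (3.31 ± 0.353) and UGT75C1 (2.43 ± 0.536) led the called genes with a 0 DAD mean above the floor. UGT75C1 stood at 0.820, 0.528 and 1.99 CPM in ethanol at 0 DAD, near the floor of 3 counts. LBD38 (-1.71), LBD37 (-0.94), TTG1 (-0.58) and PAL2 (-0.54) were lowest. 5MAT and TT8 were called as well, but at mean levels no higher than the floor, and each call was lost without several of the 6 libraries. In water PAP1 (1.70 ± 0.289), SPL9 (1.47), F3H (0.80) and FLS1 (0.80) were highest, and LBD38 (-1.31), PAL3 (-0.98), PAL1 (-0.70) and PAL2 (-0.68) lowest. PAL1 was lost without water 0 DAD replicate 1 or water 3 DAD replicate 3 (-0.80 to -0.59 over the 6 fits), and F3H without water 0 DAD replicate 2 or water 3 DAD replicate 1 (0.63 to 0.96).

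At 5 DAD PAP1 reached a log2 fold change of 4.79 ± 0.337 over 0 DAD in ethanol (adjusted p = 1.25e-11) and 4.08 ± 0.279 in water (adjusted p = 1.48e-11). FLS1 reached 3.31 ± 0.274 in ethanol and 2.37 ± 0.243 in water, CHS 2.62 ± 0.241 in ethanol and 1.5 ± 0.223 in water, and DFR 1.74 ± 0.491 in ethanol and 1.23 ± 0.433 in water. 3AT1 rose by 3.90 in ethanol and 2.69 in water, and in water TT8 (2.99, adjusted p = 0.0497) and MYB12 (2.44, adjusted p = 0.0203) also stood among the highest. At 0 DAD, 3AT1 in ethanol (0.0781 CPM on average) and TT8 in water (0.176 CPM) were below the floor of 3 counts. The size of their rises there is not resolved. LBD38 fell by 2.37 in ethanol and by 2.14 in water on the log2 scale, and LBD37 by 1.11 in ethanol and by 0.76 in water. TTG1 (-0.62) and MYBL2 (-0.44) fell in ethanol, and PAL3 (-0.70) and PAL2 (-0.51) fell in water. Leaving out single libraries took away the call of MYBL2 in ethanol (-0.56 to -0.29; without 0 DAD replicate 3, 5 DAD replicate 1 or 5 DAD replicate 3). In water it took away those of TT8 (2.43 to 3.43; without 0 DAD replicate 3 or 5 DAD replicate 2), PAL3 (-0.90 to -0.53; without 0 DAD replicate 1, 5 DAD replicate 2 or 5 DAD replicate 3), MYB12 (1.6 at the lowest, without 5 DAD replicate 3) and DFR (0.92 to 1.5; without 0 DAD replicate 3 or 5 DAD replicate 1).

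By 7 DAD in ethanol all 10 late anthocyanin genes, all 3 flavonol genes and all 5 early genes were above 0 DAD. CHS was up by 3.55 ± 0.248, LDOX by 3.88 ± 0.497, FLS1 by 3.75 ± 0.275 and DFR by 2.83 ± 0.491, and the regulators PAP1 (5.26 ± 0.335) and PAP2 (4.96 ± 0.867) by more. PAP2 averaged 0.273 CPM in ethanol at 0 DAD, below the floor of 3 counts, so the size of its rise is not resolved. TT8 was at least 2.83-fold and 5MAT at least 2.13-fold higher. LBD38 (-2.49), LBD37 (-1.46), PAL3 (-0.98) and TTG1 (-0.73) fell.

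Water at 7 DAD looked different by branch. There 8 of 10 late anthocyanin genes rose over 0 DAD, but none of the flavonol genes. UGT78D1 fell by 1.91 on the log2 scale (adjusted p = 3.03e-07), and UGT89C1 fell as well (-0.69, adjusted p = 0.0158). FLS1 (0.19 ± 0.252, adjusted p = 0.53), with day 7 values on both sides of those of day 0, did not pass. PAP2 (6.5 ± 0.729), 3AT1 (4.76), TT8 (3.70) and GSTF12 (3.59) were highest, and LBD38 (-4.53), PAL3 (-2.39) and LBD37 (-1.80) fell with UGT78D1. TT8 averaged 0.176 CPM in water at 0 DAD, below the floor of 3 counts, so the size of its rise is not resolved. DFR rose by 2.14 ± 0.439, though its water 7 DAD replicate 3 stood at 18.4 CPM, below the 21.0 CPM of one 0 DAD library.

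The last 2 days separated the branches. Between 5 and 7 DAD 9 members changed in ethanol, all higher, where 8.50% of all genes passed (5.34% higher, 3.16% lower). They were PAL4 (2.22 ± 0.315), PAP2 (2.21 ± 0.597), PAL1 (1.07 ± 0.212), 4CL1 (1.01 ± 0.173), CHS, C4H, F3H, CHIL and PAL2, and no flavonol or late anthocyanin gene was among them. PAP2 was not called without ethanol 5 DAD replicate 3 or without ethanol 7 DAD replicate 2 (1.77 at the lowest), nor F3H without the second of these (adjusted p = 0.15).

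In water over the same days 26 members changed, 9 higher and 17 lower, where 64.5% of all genes passed (31.8% higher, 32.7% lower). All 3 flavonol genes fell: UGT78D1 to 10.8, 3.83 and 8.55 CPM at 7 DAD, against 60.8, 59.8 and 60.1 CPM at 5 DAD (log2 fold change -2.93 ± 0.266, adjusted p = 1.44e-10), FLS1 by 2.18 and UGT89C1 by 2.11 on the log2 scale. PAP1 fell to 9.60, 8.77 and 9.23 CPM at 7 DAD, against 56.0, 39.1 and 36.4 CPM at 5 DAD (-2.25 ± 0.246, adjusted p = 5.93e-09). None of these 4 genes had a 7 DAD library as high as any 5 DAD library. EGL3 (-2.49), 4CL3 (-2.44), LBD38 (-2.39) and MYBL2 (-0.96) fell with them.

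PAP2 rose in water over those days, to 81.2, 88.5 and 29.3 CPM at 7 DAD against 8.19, 1.97 and 0.930 CPM at 5 DAD (4.17 ± 0.608, adjusted p = 9.43e-07). PAL4 (2.64), 3AT1 (2.08) and C4H (1.89) followed. Of the late genes, 4 of 10 rose, not far above the share of all genes called higher over these days, and none fell. DFR was among the 4 (0.92 ± 0.416, adjusted p = 0.0592), but that call was lost without water 5 DAD replicate 2 or 3 or water 7 DAD replicate 1 or 2, the log2 fold change ranging between 0.45 and 1.37, and also with the compared groups alone.

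**Figure D5:**
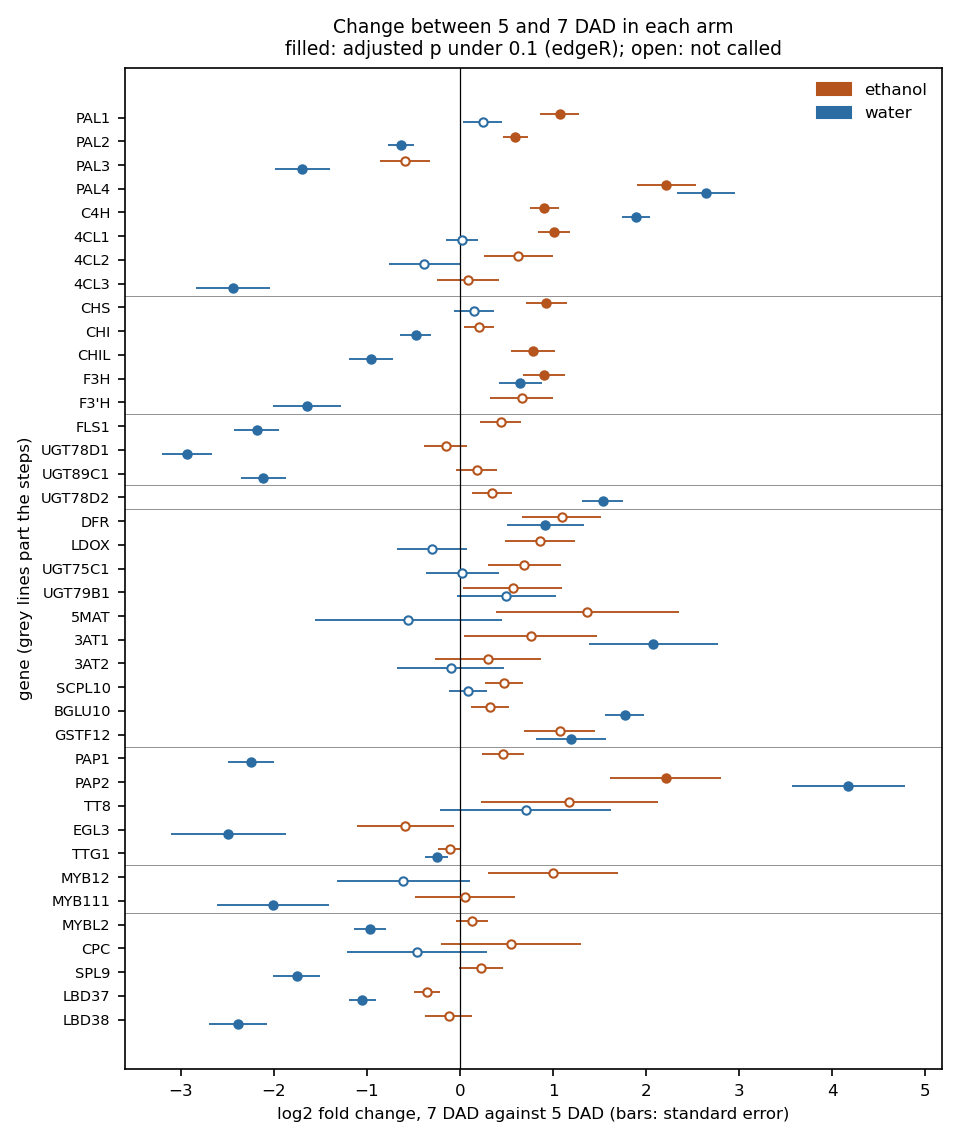
Log2 fold change of 7 against 5 DAD with its standard error (horizontal axis) for each tested member in ethanol and in water, grouped by step, with filled points for called genes. In water FLS1, UGT78D1 and UGT89C1 sit between -2.93 and -2.11 and PAP2 at 4.17, while no flavonol gene is called in ethanol.

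Whether the ethanol effect itself differed between days was tested as an interaction. From 5 to 7 DAD it changed in 24 members, 20 upwards and 4 downwards, where 47.1% of all genes passed. UGT78D1 (2.78 ± 0.349), PAP1 (2.71 ± 0.332), FLS1 (2.62 ± 0.327) and 4CL3 (2.53 ± 0.517) changed most upwards, and PAP2 (-1.96 ± 0.823), BGLU10 (-1.44 ± 0.286), UGT78D2 (-1.19 ± 0.305) and C4H (-0.99 ± 0.211) downwards. PAP2, with an adjusted p of 0.0577, was lost in 7 of 12 fits that left out a library. CHS (0.77 ± 0.306, adjusted p = 0.0438), MYBL2 (1.09 ± 0.243) and LDOX (1.16 ± 0.53, adjusted p = 0.0821) passed. CHS was lost without water 7 DAD replicate 3 (0.49) or ethanol 5 DAD replicate 3 (0.66), and LDOX in 6 of 12 such fits, down to 0.60 without ethanol 7 DAD replicate 2, whereas DFR (0.18 ± 0.586, adjusted p = 0.842) and F3H (0.25 ± 0.323) did not pass.

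From 0 to 7 DAD the effect changed in 22 members, 20 upwards and 2 downwards, where 50.8% of all genes passed. EGL3 (3.80 ± 0.91), 4CL3 (3.76 ± 0.565), UGT78D1 (3.63 ± 0.365) and FLS1 (3.56 ± 0.372) had the largest changes among genes counted in every group, CHS had 1.90 ± 0.321 and LDOX 2.81 ± 0.64, and BGLU10 and C4H (-1.40 each) changed downwards. EGL3 rests on ethanol 0 DAD libraries at 0.547, 0 and 0.820 CPM, near the floor of 3 counts. 5MAT was called too, but rests on a group at 0 counts.

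Neighbouring branches were read at 7 DAD from lists beyond the 43 members. Of all genes tested, 32.0% were called higher and 28.6% lower in ethanol at that day. All 5 sinapate branch genes were lower in ethanol, between UGT84A2 (-1.81) and FAH1 (-0.29) apart from SNG2, which was at 0, 0.112 and 0.0862 CPM in ethanol against 24.6, 15.5 and 15.3 CPM in water. Of 6 light regulators of the pathway 5 were lower, BBX22 (-1.25) the most and SPA1 (-0.48) the least, and COP1 did not pass. Among 11 further repressors and F-box proteins that act on PAL or CHS, 5 were higher, TRY (2.71) the most, and 4 lower, LBD39 (-2.25) the most. None of the 7 proanthocyanidin branch genes passed the filter on low counts.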

How the data were processed

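RNA-seq was performed on shoots in 30 libraries, 3 for each of 10 combinations of pretreatment and harvest day. Per the study's methods, the authors made Lasy-Seq libraries, trimmed read 1 with Trimmomatic, aligned it to TAIR10 with HISAT2 and assigned it to genes, introns included, by strand with featureCounts. A read could be assigned to more than 1 gene. The deposited raw counts were used for every test. The deposited normalised signal, which the authors obtained by dividing the counts by a DESeq2 size factor, was only checked against the counts.

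The 43 members and the other gene lists were chosen with earlier results of these data known. Of 27417 genes, 19249 passed filterByExpr of edgeR 4.0.16 (R 4.3.3) by group. Libraries were scaled with TMM, giving factors of 0.915 to 1.16, and CPM use the scaled totals. All libraries entered a single quasi-likelihood model in which each group had its own mean, leaving 20 residual degrees of freedom. The Benjamini-Hochberg adjustment ran over the 19249 genes, with a threshold of 0.1 as in the study's methods. Standard errors derive from the F statistic. A fold against a group at 0 counts is a bound from a floor of 3 counts per library. The script was tested on simulated data.

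Members named with values were those called between the arms at 0 to 5 DAD, the 4 highest and 4 lowest called in each other comparison, and CHS, F3H, FLS1, DFR, LDOX, UGT75C1, PAP1, MYB12, TT8 and MYBL2. Others, such as UGT89C1, UGT78D2 or GSTF12, were added after their values were seen. Interactions compared the ethanol effect between days.

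Replicate numbers occur in both arms, but only 2 of 15 same-numbered pairs correlated above 0.1 in their deviations from the group means (-0.0974 to 0.212), so libraries were not paired. The study's methods call the replicates biological without saying whether they were separate pots or plants. Other size factors, no or a stricter filter on low counts, a replicate block, the compared groups alone, DESeq2 1.42.0 and leaving out each library were tried. Sequences come from the RefSeq annotation of TAIR10.1, which held all 43 members. The deposited tables give no coordinates.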

Additional observations from a re-analysis of the deposited data

Results flagged for a closer look

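The ethanol effect differed between harvest days by the interaction test in 22 of 39 tested members between 7 and 0 DAD, where 50.8% of all genes passed. Between 7 and 5 DAD it differed in 24 members, where 47.1% of all genes passed. The flavonol genes were in both sets, and DFR and F3H in neither. These differences were flagged because they compare the same contrast on 2 days, and not because the counts set the members apart from all genes.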

How the results depend on the processing

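For the 75 gene calls between the arms at 0 and 7 DAD and in the changes of the ethanol effect, 1322 alternative values were computed, of which 1265 kept the call, 57 lost it and 0 changed direction. Calls between days within an arm are not in that tally. DESeq2 called 4 members at 0 DAD in place of 2, adding UGT89C1 and SCPL10. The other planned settings kept each count of members called within 1.5 times, apart from fits that left out a library, which are given below. TTG1 at 7 DAD lost its call with RLE size factors, with no or a stricter filter, with the groups alone and in DESeq2. Library totals in place of TMM moved the median of all genes at 7 DAD to 0.26, against 0.05, and called 23 members higher and 6 lower.

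The numbers of the libraries do not pair them, and 5 of 15 ethanol libraries lay closest to the water library of their own number. With a replicate block, 27 members were called between the arms at 7 DAD, 2 at 0 DAD and 0 at 1, 3 and 5 DAD. Against 0 DAD the block gave 24, 22, 33 and 36 members in ethanol and 9, 12, 30 and 30 in water at 1, 3, 5 and 7 DAD. It gave 10 in ethanol and 26 in water for 7 against 5 DAD, and 23 and 25 for the change of the ethanol effect from 0 and from 5 to 7 DAD.

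Leaving out each library in turn gave 1 to 4 members between the arms at 0 DAD, 0 at 1, 3 and 5 DAD, and 25 to 27 at 7 DAD. In ethanol it gave 19 to 23 at 1 DAD, 17 to 20 at 3 DAD, 27 to 33 at 5 DAD and 34 to 37 at 7 DAD against 0 DAD, and 6 to 12 for 7 against 5 DAD. In water it gave 4 to 9, 9 to 12, 26 to 31 and 28 to 31 against 0 DAD, and 23 to 26 for 7 against 5 DAD. The change of the ethanol effect gave 21 to 26 members from 0 DAD and 20 to 23 from 5 DAD. The single libraries behind the outer values were water 0 DAD replicate 2 (1 member) and replicate 3 (4 members) at 0 DAD, ethanol 7 DAD replicate 2 (6 members) for 7 against 5 DAD, and water 0 DAD replicate 1 (4 members) at 1 DAD in water. With ethanol 7 DAD replicate 2 and water 7 DAD replicate 3 both left out, a setting chosen after seeing the data, 27 members were called at 7 DAD, 18 higher and 9 lower.

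The difference in the log2 ratio of DFR to FLS1 ran between -3.37 and -2.42 at 7 DAD, -1.17 and -0.15 at 5 DAD and 0.11 and 0.57 at 1 DAD. At 3 DAD it ran between -0.33 and 0.46, the negative value being without water replicate 2. At 0 DAD it ran between -0.55 and 0.25, with the sign turned without water replicate 2 (0.02), ethanol replicate 1 (0.08) or ethanol replicate 3 (0.25). Depth limits the genes near the floor of 3 counts, among them TT8, 5MAT, EGL3 and both flavonol MYB genes.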
